A study of Arabidopsis thaliana with 4 samples.

Results

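The genes described here were 39 *Arabidopsis thaliana* genes of DNA damage signaling and repair, taken by locus identifier from a deposited table of 28642 loci. They were 19 damage‐induced genes, most of which are known to rise when *Arabidopsis* DNA is broken, and 20 other genes of damage signaling and repair that are placed outside that group. RNA‐Seq was performed on whole roots of *atx1setm* seedlings (2 libraries) and of the wild type (WT), the Ws accession (2 libraries), each library being 1 biological replicate. The *atx1setm* line has the loss‐of‐function *atx1‐1* mutation in the Ws background and carries an *ATX1* transgene without methyltransferase activity, so it differs from the WT by both the mutation and the transgene. The labels give an age of 10 days after germination for the seedlings, and the extraction protocol gives 8 to 10 days. The authors' methods give 8 days for RNA‐Seq and their results 8 to 10 days, so the age of the libraries is not settled. How many seedlings were pooled for a library is not given in the sources used here. In whole roots, fewer cells of a type and less RNA per cell cannot be told apart.

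In plants, the kinases ATM and ATR sense broken DNA and stalled replication forks and phosphorylate SOG1, a NAC transcription factor that does the work p53 does in animals. SOG1 binds the promoters of genes for cell cycle arrest, nucleotide supply and homologous recombination, and these genes rise within hours of a break. Other repair genes, such as those of end joining and mismatch repair, are known to be transcribed at a steadier level. In root tips the response is known to stop division and, in stem cells, to bring about cell death.

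The site that SOG1 binds is written CTTNNNNNNNAAG, where N is any base, and its fixed letters read the same on both strands. It was sought in the 250 bases before the RefSeq start of each gene (TAIR10.1, whose nuclear chromosomes have the coordinates of TAIR10), because members of a shared response can share a promoter site. It was present before the start of 4 of the 19 damage‐induced members (21.1%), 2 of the 20 other members (10.0%) and 2664 of 27443 protein‐coding genes (9.71%). With the 50 bases after the start included, the shares were 26.3% (5 of 19), 20% (4 of 20) and 11.8%. All these shares depend on the RefSeq starts. From the deposited starts, the sites of *PARP2* (start 1049957) and *GR1* (start 19326333) lie more than 250 bases upstream. The search was not repeated from the deposited starts, so the shares there are not known. The sequences below run 5′ to 3′ on the strand of the gene, with the fixed letters of the site in capitals. Those shown are, in order, the promoters of *ANAC044* (chr3:228986-229046, plus strand), *GR1* (chr3:19325946-19326006, plus strand) and *PARP2* (chr4:1049646-1049706, plus strand) among the damage‐induced members, and of *RAD54* (chr3:6658989-6659033, minus strand) and *TEB* (chr4:15767102-15767162, plus strand) among the others.
ANAC044: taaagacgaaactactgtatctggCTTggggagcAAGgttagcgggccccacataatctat
GR1: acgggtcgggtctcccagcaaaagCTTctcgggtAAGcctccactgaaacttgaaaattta
PARP2: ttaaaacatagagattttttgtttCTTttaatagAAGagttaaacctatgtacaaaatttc
RAD54: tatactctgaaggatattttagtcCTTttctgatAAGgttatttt
TEB: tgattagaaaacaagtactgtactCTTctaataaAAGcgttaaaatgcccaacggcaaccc

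E2F factors, which drive genes of DNA synthesis, bind sites of another kind, sought as TTTCCCGC, TTTGGCGC, TTTCGCGC or TTTGCCGC on either strand. Before the start, they were present in 2 damage‐induced members (10.5%), 2 other members (10.0%) and 1.41% of protein‐coding genes. They lay in *ANAC085* (chr5:4672985-4673040, minus strand) and *GR1* among the damage‐induced members, and in *BRCA2A* (chr4:10525-10580, minus strand) and *BRCA2B* (chr5:241107-241144, minus strand) among the others. These positions too are set by the RefSeq starts. From the deposited starts, the sites of *ANAC085* (start 4672072) and *GR1* lie more than 250 bases upstream. The sites of *ANAC085* and of the *BRCA2* pair are shown with the E2F‐type letters in capitals, the last because the bases printed before the site are nearly alike in these gene copies. In *GR1* the E2F‐type letters were 12 to 5 bases before the start and did not overlap its SOG1‐type site, at 65 to 53 bases before it.
ANAC085: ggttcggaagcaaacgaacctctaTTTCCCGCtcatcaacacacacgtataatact
BRCA2A: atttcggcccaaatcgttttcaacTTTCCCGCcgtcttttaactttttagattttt
BRCA2B: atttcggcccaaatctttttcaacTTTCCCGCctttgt

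The libraries held 38574293 to 46439122 exon reads. *ATX1*, the altered gene, had 475 and 270 exon reads in *atx1setm* and 731 and 388 in Ws. Its intron reads were 44 and 43 in *atx1setm* and 0 and 2 in Ws. Transcripts of the transgene would be counted at the same locus. Of 5 root meristem, 3 root cap, 2 xylem, 2 phloem and 5 green shoot markers, none was at 0 in any library, and those with the largest fold changes were the stem cell organiser gene *WOX5* (log2 fold change 1.46, SE 0.30) and the Rubisco subunit gene *RBCS1B* (1.42, SE 1.29). The green shoot markers together had 116.7 and 380.6 CPM in *atx1setm* and 188.8 and 322.1 CPM in Ws, where CPM are exon read counts scaled to a common library size by TMM. Replicate 2 of *atx1setm* stood apart with a TMM factor of 0.855, against 1.01 to 1.09 in the other 3 libraries.

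The question put to the libraries was whether the damage‐induced members and the other members differed between *atx1setm* and WT roots. The damage‐induced members were mostly higher in *atx1setm* roots, with a median log2 fold change of 1.43, and the other members were not, with a median of −0.28. Over all 20714 genes tested the median was −0.01. The *atx1setm* libraries did not overlap the Ws libraries and were higher in 15 of the 19 damage‐induced members and in 0 of the 20 other members, while 19.6% of all genes tested were separated in this direction. They were lower without overlap in 0 damage‐induced members and in 1 other member, against 4148 of all genes (20%). The authors had already listed *TSO2*, *TK1A*, *ANAC044*, *ANAC085* and *ANAC103* as upregulated in *atx1setm* from these same libraries. The members were chosen with such results known, so these counts and medians are not independent of them.

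Called counts depended on the test. With 2 libraries in each group, edgeR's quasi‐likelihood test, adjusted over all genes by the Benjamini–Hochberg method, called 0 genes higher (0.0%) and 0 lower at an adjusted p under 0.05, and so 0 members. At an unadjusted p under 0.05 it had 11 of the 19 damage‐induced members higher and 0 lower, and 0 of the 20 other members in either direction. The shares of all genes at that p were 4.93% higher and 4.78% lower. With the exact test of edgeR at an adjusted p under 0.05, 10 of 19 damage‐induced members and 0 of 20 other members were higher, against 1.71% of all genes. DESeq2 also had 10 and 0 members higher, against 1.46% of all genes. Neither had a member lower, against 2.24% of all genes lower for the exact test and 1.75% for DESeq2. Those called by each included *ANAC044*, *ANAC085*, *ANAC103*, *TSO2*, *TK1A*, *CYCB1-1*, *XRI1*, *GMI1* and *BRCA1*, and in what follows "rose" is written only of these. Without *atx1setm* replicate 2, the library that stood apart, the quasi‐likelihood test called 13 damage‐induced members and 423 of all genes higher, and 0 other members and 528 of all genes lower. Without *atx1setm* replicate 1 it called 10 damage‐induced members and 2153 of all genes higher, and 9 other members and 2413 of all genes lower. The 9 were *ATM*, *ATR*, *MRE11*, *RAD50*, *KU70*, *LIG4*, *TEB*, *MSH6* and *REV3*.

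**Figure D1:**
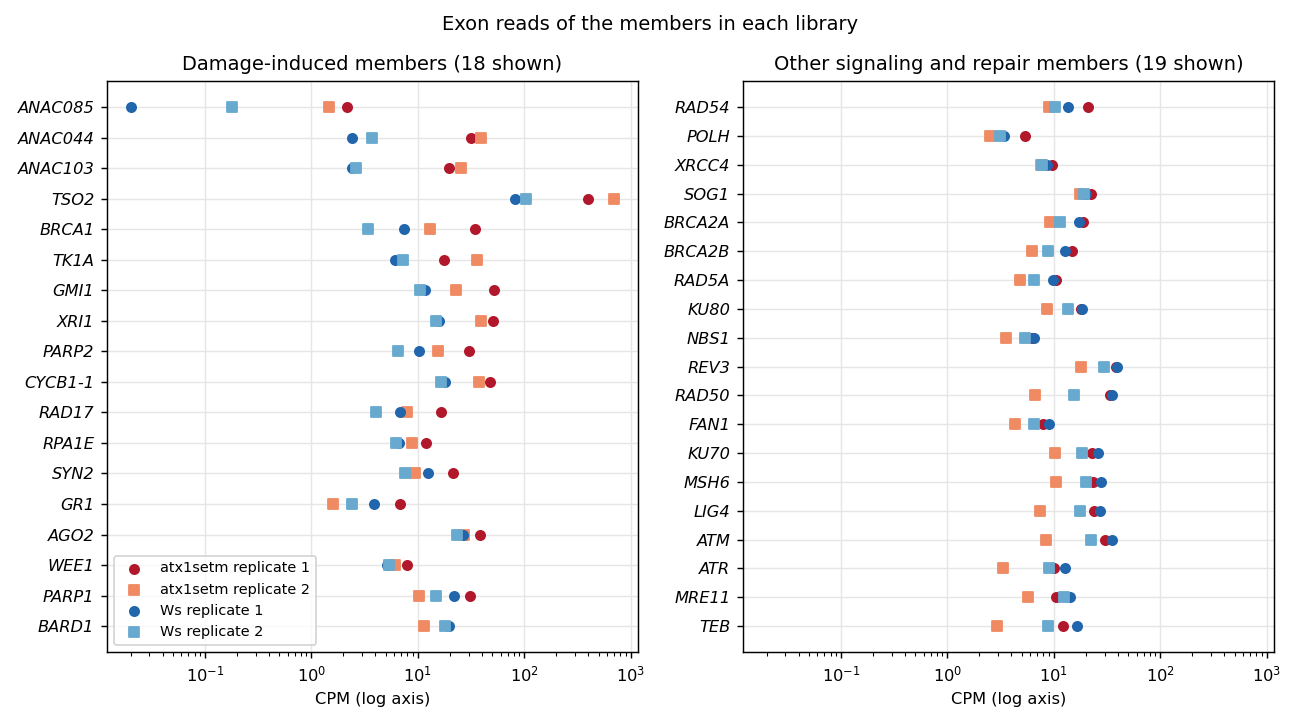
CPM of 18 damage‐induced and 19 other members in each of the 4 libraries, on a log axis, with the damage‐induced members on the left and the other members on the right, ordered by fold change. In the upper 10 rows on the left both *atx1setm* points lie right of both Ws points. On the right the replicate 2 point of *atx1setm* is the lowest of the 4 in all 19 rows.

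The plot of CPM by library shows the widest separation for 3 NAC regulators, which had the 3 largest fold changes of the 39. *ANAC044* (AT3G01600, chromosome 3 from 229171 to 231105), a NAC factor and SOG1 target that halts the cycle before mitosis, had 1473 and 1501 exon reads in *atx1setm* replicates 1 and 2, against 120 and 144 in Ws. Both *atx1setm* libraries were far above the Ws libraries, and the replicates of each genotype were close together. It averaged 35.3 ± 5.25 CPM in *atx1setm* and 3.06 ± 0.89 CPM in Ws (SD, n = 2 libraries each), an 11.5‐fold difference (log2 3.53, SE 0.34). The adjusted p was 0.0837 by edgeR's quasi‐likelihood test and 1.70e-13 by its exact test, with 6.37e-38 to 0.116 over the alternatives.

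*ANAC103* (AT5G64060, chromosome 5 from 25633536 to 25635781), a NAC factor known from the response to unfolded proteins and as a SOG1 target, had 909 and 985 reads in *atx1setm*, against 120 and 102 in Ws. Its groups were also far apart, at 22.5 ± 4.32 CPM in *atx1setm* and 2.53 ± 0.13 CPM in Ws (SD, n = 2 each). The log2 fold change was 3.16 (SE 0.29), with an adjusted p of 0.0837 by the quasi‐likelihood test of edgeR, 1.13e-12 by the exact test and 1.89e-28 to 0.116 over the alternatives.

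*ANAC085* (AT5G14490, chromosome 5 from 4670779 to 4672072), the closest relative of *ANAC044*, had 100 and 56 reads in *atx1setm* and only 1 and 7 in Ws, the lowest Ws level of any member. Its log2 fold change of 4.22 (SE 0.83) was the largest of the 39 and had the largest SE, ranging from 3.30 without Ws replicate 1 to 6.31 without Ws replicate 2. The adjusted p was 0.193 by edgeR's quasi‐likelihood test, 3.43e-05 by the exact test and 1.29e-14 to 0.264 over the alternatives. *SOG1* (AT1G25580, chromosome 1 from 8996768 to 8999860), the regulator above these genes, passed none of the 3 tests, with 1048 and 682 reads in *atx1setm* and 988 and 753 in Ws. The Ws libraries lay between those of *atx1setm*, and the log2 fold change was 0.03 (SE 0.25), from −0.15 to 0.21 when 1 library was left out.

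Both members for nucleotide supply rose. *TSO2* (AT3G27060, chromosome 3 from 9979866 to 9981295), the small subunit of ribonucleotide reductase, which makes the deoxynucleotides used in DNA synthesis, had 18607 and 26683 reads in *atx1setm* and 4058 and 4057 in Ws. It was the most abundant member in both genotypes, at 378 RPKM in *atx1setm* and 71.0 RPKM in Ws as the authors scaled the reads by exon length. Its mean was 546 ± 208 CPM in *atx1setm* and 93.2 ± 15.4 CPM in Ws (SD, n = 2 each), a 5.86‐fold difference (log2 2.55, SE 0.39). The adjusted p was 0.127 by the quasi‐likelihood test of edgeR, 5.25e-07 by its exact test and 2.21e-16 to 0.403 over the alternatives.

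*TK1A* (AT3G07800, chromosome 3 from 2489387 to 2491087), a thymidine kinase of the salvage pathway, had 826 and 1384 reads in *atx1setm*, against 303 and 282 in Ws. As for *TSO2*, replicate 2 was the higher *atx1setm* library, the opposite of most members. The log2 fold change was 2.00 (SE 0.41), from 1.42 without *atx1setm* replicate 2 to 2.43 without *atx1setm* replicate 1, and the adjusted p was 0.204 by edgeR's quasi‐likelihood test, 0.00163 by the exact test and 8.14e-13 to 0.309 over the alternatives.

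Of the 3 checkpoint members, *CYCB1-1* rose. *CYCB1-1* (AT4G37490, chromosome 4 from 17621886 to 17624285), a B‐type cyclin of mitosis that is also known to accumulate on DNA damage and to act in homologous recombination, had 2205 and 1450 reads in *atx1setm*, against 889 and 647 in Ws. Every *atx1setm* library exceeded both Ws libraries, by a log2 fold change of 1.29 (SE 0.25). The adjusted p was 0.190 by edgeR's quasi‐likelihood test, 0.0101 by the exact test and 1.27e-06 to 1.00 over the alternatives. *RAD17* (AT5G66130), which loads the checkpoint clamp, had a log2 fold change of 1.15 (SE 0.48), with 765 and 303 reads in *atx1setm* and 339 and 159 in Ws. Its lower *atx1setm* library was above its higher Ws library after scaling (7.87 against 6.87 CPM), and its p was 0.0613 unadjusted by the quasi‐likelihood test of edgeR. Its fold change became 0.52 without *atx1setm* replicate 1 and 1.60 without *atx1setm* replicate 2. *WEE1* (AT1G02970), a kinase that blocks the cycle when replication stalls, had a log2 fold change of 0.40 (SE 0.29).

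Homologous recombination copies a broken strand from an intact sister, and of its damage‐induced members *XRI1* and *BRCA1* rose. *XRI1* (AT5G48720, chromosome 5 from 19758881 to 19761721), named for its induction by X‐rays and needed for recombination, had 2371 and 1508 reads in *atx1setm* and 779 and 576 in Ws. Its mean of 45.0 ± 8.23 CPM in *atx1setm*, against 15.3 ± 0.72 CPM in Ws (SD, n = 2 each), gave a log2 fold change of 1.56 (SE 0.26). The adjusted p was 0.145 by edgeR's quasi‐likelihood test, 9.88e-04 by the exact test and 3.00e-09 to 0.636 over the alternatives.

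*BRCA1* (AT4G21070), a ubiquitin ligase that acts in recombination, rose with 1600 and 498 reads in *atx1setm* against 366 and 132 in Ws. Replicate 2 was much the lower in both genotypes, and the log2 fold change of 2.12 (SE 0.63) became 1.25 without *atx1setm* replicate 1 and 2.80 without Ws replicate 1. Its adjusted p was 0.360 by edgeR's quasi‐likelihood test, 0.0378 by the exact test, 0.00411 by DESeq2 and 2.67e-14 to 0.499 over all alternatives.

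Its partner *BARD1* (AT1G04020) was the only damage‐induced member with a negative log2 fold change, −0.30 (SE 0.33), with 903 and 440 reads in *atx1setm* and 978 and 701 in Ws. *RPA1E* (AT4G19130), a large subunit of the protein that coats single strands, was at 0.69 on the log2 scale (SE 0.28), with groups that did not overlap. *GR1* (AT3G52115), also called *COM1*, which trims broken ends, had overlapping groups, with 320 and 61 reads in *atx1setm* and 190 and 95 in Ws. Its log2 fold change of 0.43 (SE 0.73) became −0.99 without *atx1setm* replicate 1.

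Among the remaining damage‐induced members, *GMI1* (AT5G24280), a protein related to the SMC proteins that hold chromosomes together, rose. It had 2408 and 890 reads in *atx1setm* and 576 and 408 in Ws, a log2 fold change of 1.75 (SE 0.44), with an adjusted p of 0.284 by edgeR's quasi‐likelihood test, 0.0165 by the exact test and 5.44e-10 to 0.498 over the alternatives. The fold change became 1.06 without *atx1setm* replicate 1 and 2.24 without *atx1setm* replicate 2. *SYN2* (AT5G40840), the cohesin subunit also called *RAD21.1*, was at 0.61 on the log2 scale (SE 0.49), with overlapping groups. The poly(ADP‐ribose) polymerases mark breaks, and of these *PARP2* (AT4G02390) had 1402 and 591 reads in *atx1setm* and 511 and 254 in Ws, a log2 fold change of 1.43 (SE 0.44) that missed the adjusted threshold by the exact test (adjusted p = 0.0905) and DESeq2 (adjusted p = 0.0535), with 4.05e-07 to 0.836 over the alternatives. *PARP1* (AT2G31320), the larger polymerase, was at 0.16 (SE 0.57), with overlapping groups. *AGO2* (AT1G31280), an Argonaute protein that binds small RNAs made at breaks, had 0.40 (SE 0.28).

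**Figure D2:**
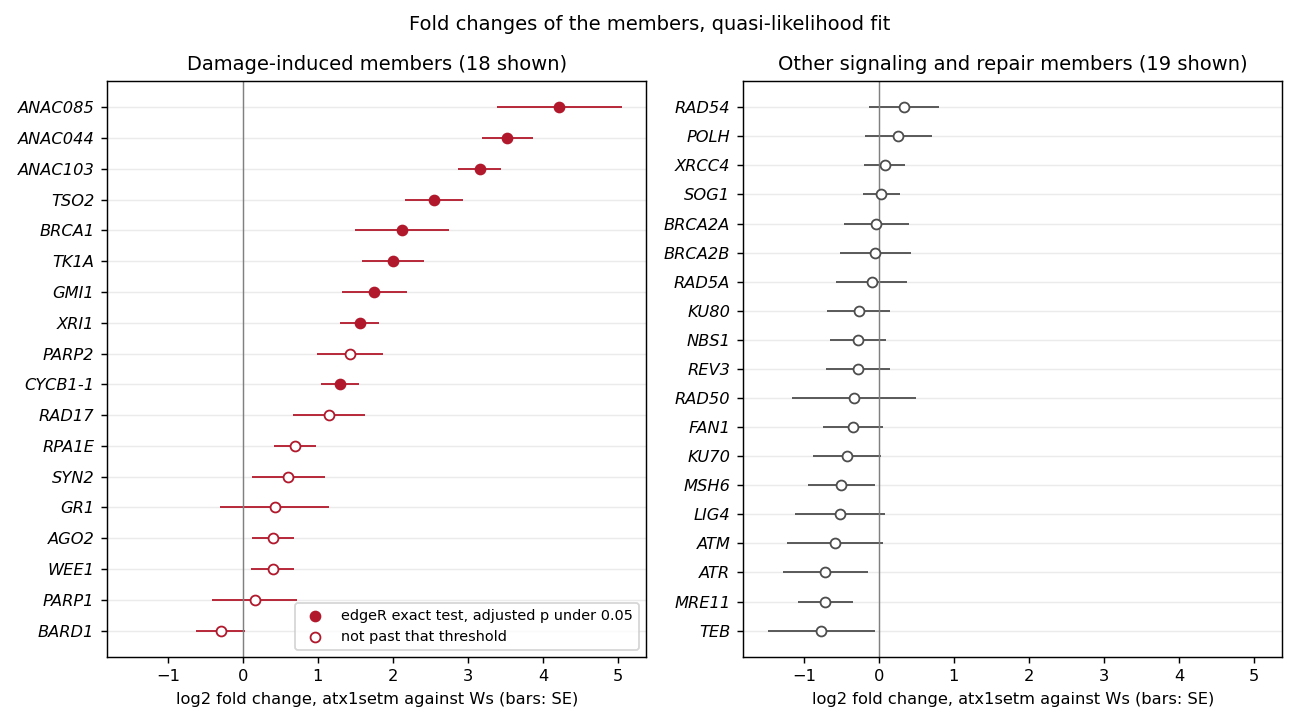
Log2 fold change of 18 damage‐induced and 19 other members, *atx1setm* against Ws, from the quasi‐likelihood fit of edgeR, with bars of 1 SE, the damage‐induced on the left and the other on the right. Filled points passed an adjusted p of 0.05 by edgeR's exact test, which are 9 on the left, from 1.29 to 4.22, and 0 on the right, where the values run from −0.77 to 0.33.

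Every one of the 20 other members had a fitted value within 1 log2 unit of 0, and the plot of fold changes shows 19 of them. The sensor kinases had lower values in *atx1setm* without passing any of the 3 tests. *ATM* (AT3G48190, chromosome 3 from 17797334 to 17828591), which responds to double strand breaks, had 1410 and 324 reads in *atx1setm*, against 1753 and 866 in Ws. Replicate 2 was the lower library in each genotype, and the groups overlapped, with a log2 fold change of −0.58 (SE 0.64). It became −1.78 without *atx1setm* replicate 1 and 0.09 without *atx1setm* replicate 2, and the adjusted p over the alternatives was 0.00240 to 1.00.

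*ATR* (AT5G40820, chromosome 5 from 16342745 to 16353898), which responds to single stranded DNA at stalled forks, had 468 and 128 reads in *atx1setm* and 635 and 352 in Ws. Its groups overlapped in the same way, with a log2 fold change of −0.71 (SE 0.57) that became −1.72 without *atx1setm* replicate 1 and −0.11 without *atx1setm* replicate 2. Its adjusted p over the alternatives was 0.00479 to 1.00. Of the complex that first binds broken ends, the nuclease *MRE11* (AT5G54260) was the only member of the 39 with both *atx1setm* libraries below both Ws libraries, at 492 and 221 reads in *atx1setm* and 701 and 489 in Ws (log2 −0.72, SE 0.37, unadjusted p = 0.107 by the quasi‐likelihood test of edgeR, with adjusted p of 0.0165 to 1.00 over the alternatives). Its partners *RAD50* (AT2G31970) and *NBS1* (AT3G02680) had log2 fold changes of −0.33 (SE 0.82) and −0.28 (SE 0.37).

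Recombination genes outside the damage‐induced group had values near 0. *BRCA2A* (AT4G00020) and *BRCA2B* (AT5G01630), which act in strand exchange, had −0.03 (SE 0.43) and −0.05 (SE 0.47). These copies share sequence, and 13.6% and 14.5% of their 50‐base exon windows, the length of a read, occur elsewhere in the genome, so that reads there could not be placed uniquely. *RAD54* (AT3G19210), a motor protein that acts on DNA in recombination and is itself known to respond to damage, had the highest value of the other members, 0.33 (SE 0.46).

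End joining seals broken ends without a template. Its members were *KU70* (AT1G16970) at −0.43 (SE 0.45) and *KU80* (AT1G48050) at −0.27 (SE 0.42), which form the ring that holds the ends, the ligase *LIG4* (AT5G57160) at −0.52 (SE 0.60) and its partner *XRCC4* (AT3G23100) at 0.07 (SE 0.27). *TEB* (AT4G32700), the polymerase theta of the backup pathway, had 564 and 113 reads in *atx1setm* and 822 and 347 in Ws, the lowest log2 fold change of the 39 (−0.77, SE 0.72). It became −2.12 without *atx1setm* replicate 1 and −0.06 without *atx1setm* replicate 2, with adjusted p of 0.00167 to 1.00 over the alternatives. *KU70*, *KU80* and *LIG4* are sometimes reported as induced by damage, and with them counted as damage‐induced the median of that group was 1.22.

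The mismatch repair gene *MSH6* (AT4G02070), whose protein helps to find mispaired bases, had −0.50 (SE 0.44), with −1.19 without *atx1setm* replicate 1 and −0.02 without *atx1setm* replicate 2. The polymerase genes *POLH* (AT5G44740) and *REV3* (AT1G67500), which copy past damaged bases, had 0.26 (SE 0.45) and −0.28 (SE 0.43). *RAD5A* (AT5G22750), which acts when forks meet damage, had −0.10 (SE 0.47), and the crosslink nuclease *FAN1* (AT1G48360) had −0.35 (SE 0.40). None of these 5 genes had groups that were apart.

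Levels per exon length, in the authors' RPKM, put the groups in different places in the genotypes. The median of the 19 damage‐induced members was 7.78 RPKM in *atx1setm* and 3.02 RPKM in Ws, with *ANAC085* lowest (1.68 and 0.0954 RPKM) and *TSO2* highest. The median of the 20 other members was 3.68 RPKM in *atx1setm* and 4.30 RPKM in Ws, and here *ATR* was lowest (0.740 and 1.23 RPKM) and *SOG1* highest (10.3 and 10.6 RPKM). Summed over the group, the damage‐induced members took 848 and 1016 CPM in *atx1setm* and 264 and 255 CPM in Ws, *TSO2* alone giving 399 and 693 CPM in *atx1setm* and 82.3 and 104 CPM in Ws. The other members together took 356 and 156 CPM in *atx1setm* and 369 and 259 CPM in Ws, so that the lowest sum was in *atx1setm* replicate 2.

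Replicate 2 differed from replicate 1 in the same direction in both genotypes. All 20 other members had fewer CPM in replicate 2 than in replicate 1, by a median log2 ratio of −1.13 in *atx1setm* and −0.47 in Ws. Of the damage‐induced members, 15 of 19 were lower in replicate 2 in *atx1setm* (median −0.50) and 12 of 19 in Ws (median −0.12). Taking the libraries by number, the damage‐induced members had a median log2 ratio of *atx1setm* to Ws of 1.53 in replicate 1, where 18 of 19 were above 0, and of 1.18 in replicate 2, where 16 of 19 were. The other members had −0.05 in replicate 1, with 8 of 20 above 0, and −0.64 in replicate 2, with 0 of 20 above 0.

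**Figure D3:**
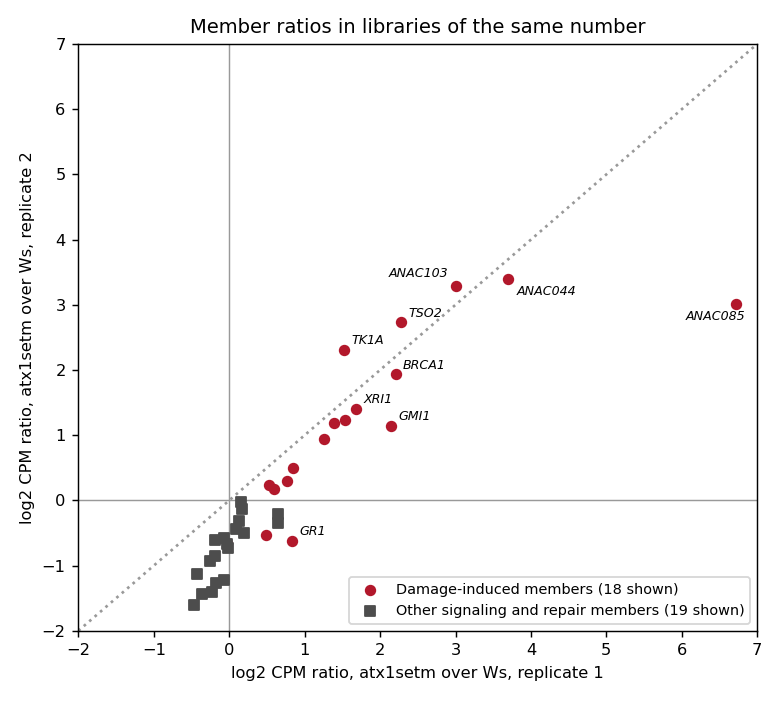
Log2 ratio of CPM, *atx1setm* over Ws, in replicate 1 (horizontal) and replicate 2 (vertical), for 18 damage‐induced and 19 other members. All 19 other members lie below 0 on the vertical axis and most members lie under the dotted line of equal ratios. The position of *ANAC085* on the horizontal axis rests on 1 Ws read.

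The plot of ratios by replicate thus shows the damage‐induced members above 0 in both pairs of libraries with few exceptions, and the other members on both sides of 0 in replicate 1 and below it in replicate 2. No source says that libraries of the same number were grown or prepared together.

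The lower values of replicate 2 went with exon length, over all genes as well as the members. All genes tested were ranked by exon length and split into 10 equal classes. Among the 2072 genes of the longest class, with exons of 2836 to 16347 bases, the median log2 ratio of replicate 2 to replicate 1 was −0.88 in *atx1setm* and −0.34 in Ws, and the median log2 fold change between genotypes was −0.38. In the shortest class, up to 728 bases, the median fold change was 0.41. The median exon length was 1856 bases in the damage‐induced members and 3376.5 bases in the others, against 1525 bases over all genes tested. The longest class held 4 damage‐induced members and 13 of the other members, *ATM*, *ATR*, *RAD50* and *TEB* among them.

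Set against the median of all genes in the same class of exon length, the damage‐induced members had a median log2 fold change of 1.33, with 18 of 19 above 0. The other members had a median of 0.01 on this scale, with 10 above and 10 below 0. The 4 damage‐induced members of the longest class, *BRCA1*, *GMI1*, *PARP1* and *AGO2*, had a median of 1.08 before and 1.46 after this step, and the 13 other members of that class had −0.33 before and 0.05 after it. The part of exon length in the values of the single members was not tested.

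**Figure D4:**
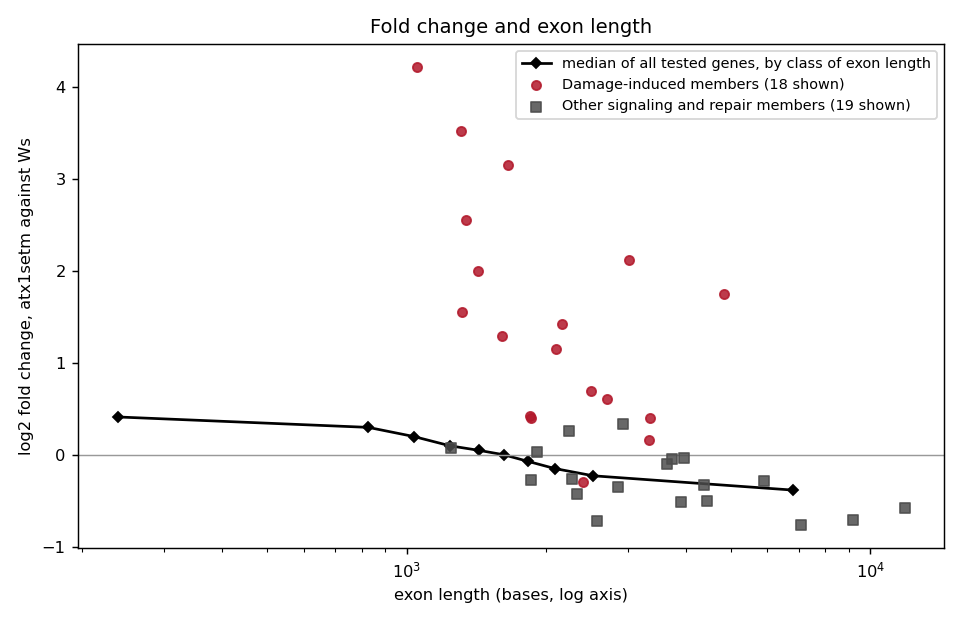
Log2 fold change of 18 damage‐induced and 19 other members, *atx1setm* against Ws, by exon length on a log axis, with the median of all tested genes in each of 10 classes of exon length drawn at the middle of the class on that axis. The line falls to −0.38 in the longest class, where the other members lie around it and the 4 damage‐induced members lie above it.

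The plot against exon length shows the damage‐induced members, other than *BARD1*, above the median of all genes in their class of exon length. For *GR1* and *PARP1* the distance to that median was 0.50 and 0.54, less than the SE of their fold changes (0.73 and 0.57). Of the damage‐induced members 12 of 19 lay in the 8 shorter classes, against 4 of the 20 other members.

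Reads in introns, which can come from transcripts not yet spliced and are not part of the exon reads, were few. The damage‐induced members together had 228 and 115 intron reads in *atx1setm* and 82 and 44 in Ws, and the others 240 and 172 in *atx1setm* and 279 and 147 in Ws. Only 4 damage‐induced and 9 other members had enough for a test. At an unadjusted p under 0.05 by edgeR's quasi‐likelihood test, 2 of the 4 and 0 of the 9 were higher in *atx1setm*, against 3.9% of the 6353 genes tested in introns, and 0 members passed the adjusted threshold. *TSO2* had 29 and 16 intron reads in *atx1setm* and 5 and 2 in Ws, a log2 fold change of 2.85 (SE 0.59) beside 2.55 in exons. Its adjusted p was 0.134 by the quasi‐likelihood test and 0.00729 by the exact test, both of edgeR, and 1.14e-04 with a replicate block. *XRI1* had 62 and 35 intron reads in *atx1setm* and 16 and 13 in Ws (log2 1.90, SE 0.51), again near its exon value of 1.56. *ATM* had 64 and 63 intron reads in *atx1setm* and 73 and 51 in Ws, beside 1410 and 324 exon reads in *atx1setm*. *REV3* had 27 and 64 in *atx1setm* and 31 and 23 in Ws. In the next 4 members replicate 2 was the lower *atx1setm* library in introns too. *ATR* had 14 and 2 intron reads in *atx1setm* and 19 and 15 in Ws, *MRE11* 15 and 2 in *atx1setm* and 16 and 2 in Ws, *RAD50* 20 and 2 in *atx1setm* and 19 and 6 in Ws, and *LIG4* 16 and 0 in *atx1setm* and 12 and 6 in Ws.

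Other genes of the pathway were counted from lists, 77 of 78 of which had enough reads. Of these, 4 are known SOG1 targets or genes that follow damage, and all 4 were higher at an unadjusted p under 0.05 by the quasi‐likelihood test of edgeR. The cell cycle inhibitors *SMR7* and *SMR5* had log2 fold changes of 4.71 (SE 0.58) and 2.67 (SE 0.54), the inhibitor *SMR4* 2.16 (SE 0.66) and *RNR1*, the large subunit that joins TSO2 in ribonucleotide reductase, 1.17 (SE 0.23). *SMR5*, *SMR7* and *RNR1* also passed the adjusted threshold by the exact test and DESeq2. The authors had already listed *SMR5* and *SMR7* as upregulated in *atx1setm* from these libraries. Among the other 73 tested, from checkpoint clamps to excision repair, 2 were higher and 0 lower at that unadjusted p, with a median of −0.01. Of all genes, 4.93% were higher and 4.78% lower at that p. The 2 higher list genes were the clamp subunit *RAD1* (0.80, SE 0.27) and the uracil glycosylase *UNG* (0.77, SE 0.27). Neither passed the adjusted threshold by the quasi‐likelihood test, the exact test or DESeq2. With a replicate block, the quasi‐likelihood test gave them adjusted p of 0.0284 and 0.0307.

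Mitotic and S phase genes were read beside *CYCB1-1* and *TSO2*, as these members also follow the cell cycle. Of 13 other cyclins, CDKs and mitotic genes of G2 and M phase, *CDKB1-1* alone was higher at an unadjusted p under 0.05 by the quasi‐likelihood test of edgeR (log2 0.93, SE 0.33), 0 were lower, and their median was 0.05. Of all genes, 4.93% were higher and 4.78% lower at that p. Of 12 replication genes, the sliding clamp *PCNA1* alone was higher at that p (1.11, SE 0.29), 0 were lower, and their median was 0.37. Without overlap, 5 of the 12 replication genes and 4 of the 13 G2 and M phase genes were higher, against 19.6% of all genes. Of the replication genes, 10 had a positive log2 fold change. Their median exon length was 2484 bases, and all genes in the class of 2247 to 2836 bases had a median of −0.23. Among 5 root meristem markers, *WOX5* was higher and *PLT1*, a regulator of the stem cell niche, lower (−0.80, SE 0.25) at that p, and *WOX5* passed the adjusted threshold by the exact test and DESeq2. The part of these genes in the members' values was not tested.

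Promoter sites and fold changes were set side by side as a description. Damage‐induced members with a SOG1‐type site before the RefSeq start had log2 fold changes of 3.53 (*ANAC044*), 1.43 (*PARP2*) and 0.43 (*GR1*). Of the other members, the 2 with one had 0.33 (*RAD54*) and −0.77 (*TEB*). The sites of *PARP2* and *GR1* lie more than 250 bases before the start in the deposited table. The 6 largest fold changes were those of *ANAC085*, *ANAC044*, *ANAC103*, *TSO2*, *BRCA1* and *TK1A*. All of these but *ANAC044* had no SOG1‐type site in the 250 bases before the RefSeq start, and *ANAC103* had one within the 50 bases after it. For *TSO2* and *ANAC085*, the 250 bases before the start in the deposited table lay outside the stretch searched. Some members lie across neighbours on the opposite strand, *RAD17*, *ATM*, *BRCA2B*, *KU70* and *LIG4* by 20 to 102 bases and *XRCC4* by 2508 bases with a locus that had 0 reads. Whether reads were counted by strand is unknown here, and reads in these stretches may belong to either gene.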

How the data were processed

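RNA from whole roots was sequenced for 50 cycles, single end, and the authors used CLC Genomics Workbench to map reads to TAIR10 and to count reads for each gene (FastQC and TAIR10 are named in the submitters' processing notes). The deposited table gives exon, intron and gene reads as raw read counts of uniquely mapped reads, with gene reads equal to exon plus intron reads in all 28642 loci, and RPKM, which the authors scaled by exon length and mapped reads. Strandedness and the settings of trimming and mapping were not given in the sources consulted. Columns of the authors' own comparison of the genotypes (fold changes and p‐values) were not used, nor were 56 other columns of per‐sample values. The deposited starts count from 0, and 1 was added. Gene names and promoters came from RefSeq (TAIR10.1).

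Counts of exon reads were fitted in R 4.3.3 with edgeR 4.0.16 (filterByExpr, TMM, quasi‐likelihood test with the legacy fit, two‐sided, genotype as the only term), and 20714 genes passed the filter, all 39 members among them. Adjusted p‐values are Benjamini–Hochberg values over all genes tested at a threshold of 0.05, and the SE is the log2 fold change divided by the square root of the F statistic. The exact test of edgeR, DESeq2 1.42.0, limma‐trend (limma 3.58.1) on log2 of the RPKM plus 0.5 or 0.1, a replicate block, other normalizations and filters, gene reads and leaving out each library were alternatives. The scripts were tested on simulated counts, where recovery of known changes was required only at a dispersion below the common dispersion of the data (0.092). This bears on the code and not on the power of these libraries. With 2 libraries a group, an exact permutation test cannot go below p = 0.333 (two‐sided), so none is given. The libraries are labelled biological replicates, and intervals are limited by their number.

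The members and gene lists were chosen with earlier results of these data known. The genes named are the members (counts and medians are over all 39, and 2 of them are not reported singly here), *SMR5*, *SMR7*, *RNR1*, up to 3 genes of each other list with the smallest quasi‐likelihood p under 0.05, and the 2 markers with the largest fold change. Values in every library were set for the 8 members with the smallest p and for *SOG1*, *ATM* and *ATR*, and the others given by library were chosen after their values were seen. *RPA2A* and *POLL* were left out because the name table gives their loci another symbol, and *PARP3* had too few reads to be tested.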

Additional observations from a re-analysis of the deposited data

How the results depend on the processing

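With 15 alternatives on exon reads, 14 of 18 damage‐induced and 4 of 19 other members kept the sign of their log2 fold change, and 32 of 554 member values had the other sign, in 19 members. None of those 19 was called by the exact test or DESeq2. With a replicate block (same‐numbered libraries deviated together, r = 0.71, across genes, but no source pairs them), 1838 genes were higher and 2050 lower, with 12 damage‐induced members higher and 6 other members lower, *ATM*, *ATR*, *MRE11*, *RAD50*, *LIG4* and *TEB* (8 lower and 2954 genes higher at an unadjusted p under 0.05), 1 other member was higher in introns at that p, and *PARP1* was at −0.013. The exact test had 354 genes higher and 463 lower and DESeq2 303 and 363, each with 10 damage‐induced members higher. Without the filter, 26 genes were higher and 55 lower, with 2 damage‐induced members higher. Leaving out 1 library gave 56 to 2153 genes higher and 90 to 2413 lower (410 to 3611 higher at an unadjusted p), 3 to 13 damage‐induced members higher (9 to 17 higher and 0 to 2 lower unadjusted), 0 to 9 other members lower (0 to 12 lower and 0 to 1 higher unadjusted), and medians of 1.06 to 1.57 for the damage‐induced and −0.88 to 0.19 for the other members. The high ends of the other members' counts lower came without *atx1setm* replicate 1. Where an arm had 1 library, it was assumed to vary like the other group. The causes were not tested.

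Members that changed sign when 1 library was left out had these ranges of log2 fold change: *BARD1* −0.73 to 0.053, *GR1* −0.99 to 1.14, *SYN2* −0.11 to 1.101, *PARP1* −0.85 to 0.76, *SOG1* −0.15 to 0.21, *ATM* −1.78 to 0.087, *RAD50* −1.94 to 0.43, *NBS1* −0.73 to 0.081, *BRCA2A* −0.64 to 0.41, *BRCA2B* −0.79 to 0.46, *RAD54* −0.42 to 0.84, *KU70* −1.13 to 0.063, *KU80* −0.90 to 0.19, *LIG4* −1.61 to 0.12, *XRCC4* −0.11 to 0.26, *RAD5A* −0.78 to 0.38, *FAN1* −0.86 to 0.043, *POLH* −0.40 to 0.72 and *REV3* −0.94 to 0.19. Library totals and limma‐trend with a pseudocount of 0.5 or 0.1 moved the median of all genes by −0.09 to −0.11. They put *SOG1* at −0.043, −0.078 and −0.083, and limma‐trend put *PARP1* at −0.093 and −0.12 and *XRCC4* at −0.032 and −0.036. Members with few reads, such as *ANAC085* in Ws, are limited by depth.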

Other observations

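Nucleotide excision repair and photolyase genes, which remove or reverse bulky and light‐made lesions, were not among the members. All 14 of the list were tested, with a median log2 fold change of −0.48 and 12 of 14 below 0, but 0 passed an unadjusted p of 0.05 by edgeR's quasi‐likelihood test and 0 were called by the exact test or DESeq2. With a replicate block, which called 2050 of all genes lower, some of the 14 were called lower by the quasi‐likelihood test. The smallest adjusted p there was 0.0130, at a log2 fold change of −0.85. Of all 20714 genes tested, 10550 were below 0. The median exon length of the 14 was 2713.5 bases, and all genes in the class of 2247 to 2836 bases had a median log2 fold change of −0.23. The part of exon length in their values was not tested. The 24 homologous recombination genes outside the members had a median of 0.00 and 0 genes past any of these thresholds.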
